A study of Acipenser schrenckii with 6 samples.

Results

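The genes that store iron, move it across membranes, build and break down heme and encode hemoglobin were followed in the gut of Amur sturgeon (Acipenser schrenckii), a freshwater sturgeon of the Amur basin. Members were taken by the protein name in the deposited table: a row belonged if its name contained ferritin, transferrin, hemoglobin subunit, heme oxygenase, biliverdin reductase, flavin reductase, hepcidin, ferrochelatase or another of 16 such terms. This gave 71 of 82023 rows. Of these, 10 rows were pyruvate dehydrogenase kinases and phosphatases, whose names contain the letters of "transferrin" inside "acetyl-transferring", and 61 were iron, heme or hemoglobin loci. The terms for cytoplasmic aconitate hydratase and for feline leukemia virus subgroup C matched 0 rows. Loci of those proteins carry other names in the table and were described apart from the members.

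The Limnodrilus group was fed fresh Limnodrilus, a tubificid worm reared in the water source of the fish, for 30 days. The commercial feed group received formulated feed over the same 30 days. Both groups were artificially bred fish of similar genetic background kept in net cages ahead of their release into a river, and gut tissue was sequenced as poly(A) RNA in 3 libraries per diet. The labels give neither the gut segment nor whether a library holds 1 fish or several, and fish age and the iron content of the diets are not stated in the sources used here. Nothing says that the libraries of a diet came from separate cages, so p-values measure only the spread between these samples, which may be technical.

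The authors deposited FPKM, the fragments of a locus divided by its length and by the size of the library. Recovered depth was 13.9 to 19.7 M reads in the Limnodrilus libraries and 9.95 to 10.5 M reads in the commercial feed libraries. The libraries differed in their gut cell content. The summed FPKM of 14 enterocyte markers was 1736, 8334 and 3505 in Limnodrilus libraries 1, 2 and 3, against 59.4, 300.2 and 2355 in commercial feed libraries 1, 2 and 3. Of the 13 tested, 3 were higher with Limnodrilus and 0 lower, beside 14.0% and 3.64% of all rows tested. Villin-1 (LOC117426246), a brush border protein that defines absorptive cells, was at 62.8, 134 and 78.2 FPKM with Limnodrilus, against 1.49, 2.12 and 50.1 FPKM with commercial feed. Summed smooth muscle markers were at 3368, 2372 and 2448 FPKM with Limnodrilus, against 8259, 5104 and 658 FPKM with commercial feed. Commercial feed libraries 1 and 2 therefore stood apart from library 3 of the same diet, and results were also computed without those 2 libraries together. Summed macrophage markers were at 549, 385 and 459 FPKM with Limnodrilus, against 135, 270.4 and 207 FPKM with commercial feed, with no overlap. Of the 106 loci in that list, 15 were tested. Higher were 2 of the 15, both CD63 loci, and 0 were lower, beside 14.0% and 3.64% of all rows tested. In bulk tissue, fewer cells of a type and less RNA per cell cannot be told apart, and the part of tissue content in the results below was not tested.

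As background, iron enters the vertebrate body through enterocytes, is reduced at their surface, is carried in by a divalent metal transporter, and leaves toward the blood through ferroportin. Inside the cell it is kept in ferritin, a hollow protein shell, or goes to mitochondria, where heme and iron-sulfur clusters are made. Heme taken up from hemoglobin or other heme proteins is opened by heme oxygenase, which releases iron. In mammals, iron regulatory proteins block the translation of ferritin and stabilise transferrin receptor mRNA when iron is low. Tubificid worms carry hemoglobin dissolved in their blood.

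Ferritin middle subunits, heme oxygenase 1, iron-responsive element-binding protein 2 and the ferrochelatase LOC117964536 were higher in the gut of Limnodrilus-fed fish. The ferrochelatase LOC117408501 and the hemoglobin beta-2-like LOC117418307 were also called higher, but entered the test only through their Limnodrilus values. No iron, heme or hemoglobin member passed the test in the other direction. Among the 61 loci, 38 averaged 1 FPKM or more across the libraries and were tested with limma on log2(FPKM + 1), with Benjamini-Hochberg adjustment over the 23644 rows tested and a threshold of 0.05. Higher with Limnodrilus were 8 of the 38 (21.1%), LOC117408501 and LOC117418307 included, beside 14.0% of all rows tested. Lower were 0 of the 38, beside 3.64% of all rows tested. At an unadjusted p under 0.05, 14 members were higher and 0 lower. The share of all rows at that threshold was not computed, so that count has no comparison. Limma-voom on recovered reads called 8 members higher and 0 lower, beside 11.3% and 3.24% of all rows tested.

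The 3 Limnodrilus libraries lay above the 3 commercial feed libraries, with no overlap, for 16 of the 38 members (42.1%), beside 28.4% of all rows tested. Those 16 include LOC117408501, LOC117418307 and ceruloplasmin (cp, commercial feed mean 0.492 FPKM), which entered the test only through their Limnodrilus values. They lay below for 0 of the 38, beside 11.5% of all rows tested. The median log2 fold change, Limnodrilus minus commercial feed, was 0.81 over the 38 members, with a range of -1.87 to 4.43, and 0.24 over all rows tested. A value above 0 was found for 31 of the 38 members (81.6%) and for 59.4% of all rows. Over all 71 rows matched, 44 were tested, 11 were higher and 0 lower, beside 14.0% and 3.64% of all rows tested. Leaving out commercial feed libraries 1 and 2 together left 1 commercial feed library, and the median log2 fold change of all rows tested was then 0.08. With a single library left out, 4, 3 and 4 iron, heme and hemoglobin members were higher without Limnodrilus library 1, 2 or 3. The shares of all rows were 2.79%, 2.71% and 2.38%. Without commercial feed library 1, 2 or 3, 6, 6 and 10 were higher, beside 10.3%, 6.26% and 20.7% of all rows. Serotransferrin-2 was the 1 member called lower with a single library left out, without commercial feed library 1, where 4.27% of all rows were lower.

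The other 23 iron, heme and hemoglobin loci had means up to 0.972 FPKM and were not tested. At least 1 library reached 1 FPKM for 9 of them, and 2 were at 0 in all 6 libraries. Of the 11 called members, the ferrochelatase LOC117408501, the hemoglobin beta-2-like LOC117418307 and the pyruvate dehydrogenase rows LOC117405913 and LOC117424663 had commercial feed means under 1 FPKM and entered the test through their Limnodrilus values, so their calls are given as descriptions.

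**Figure D1:**
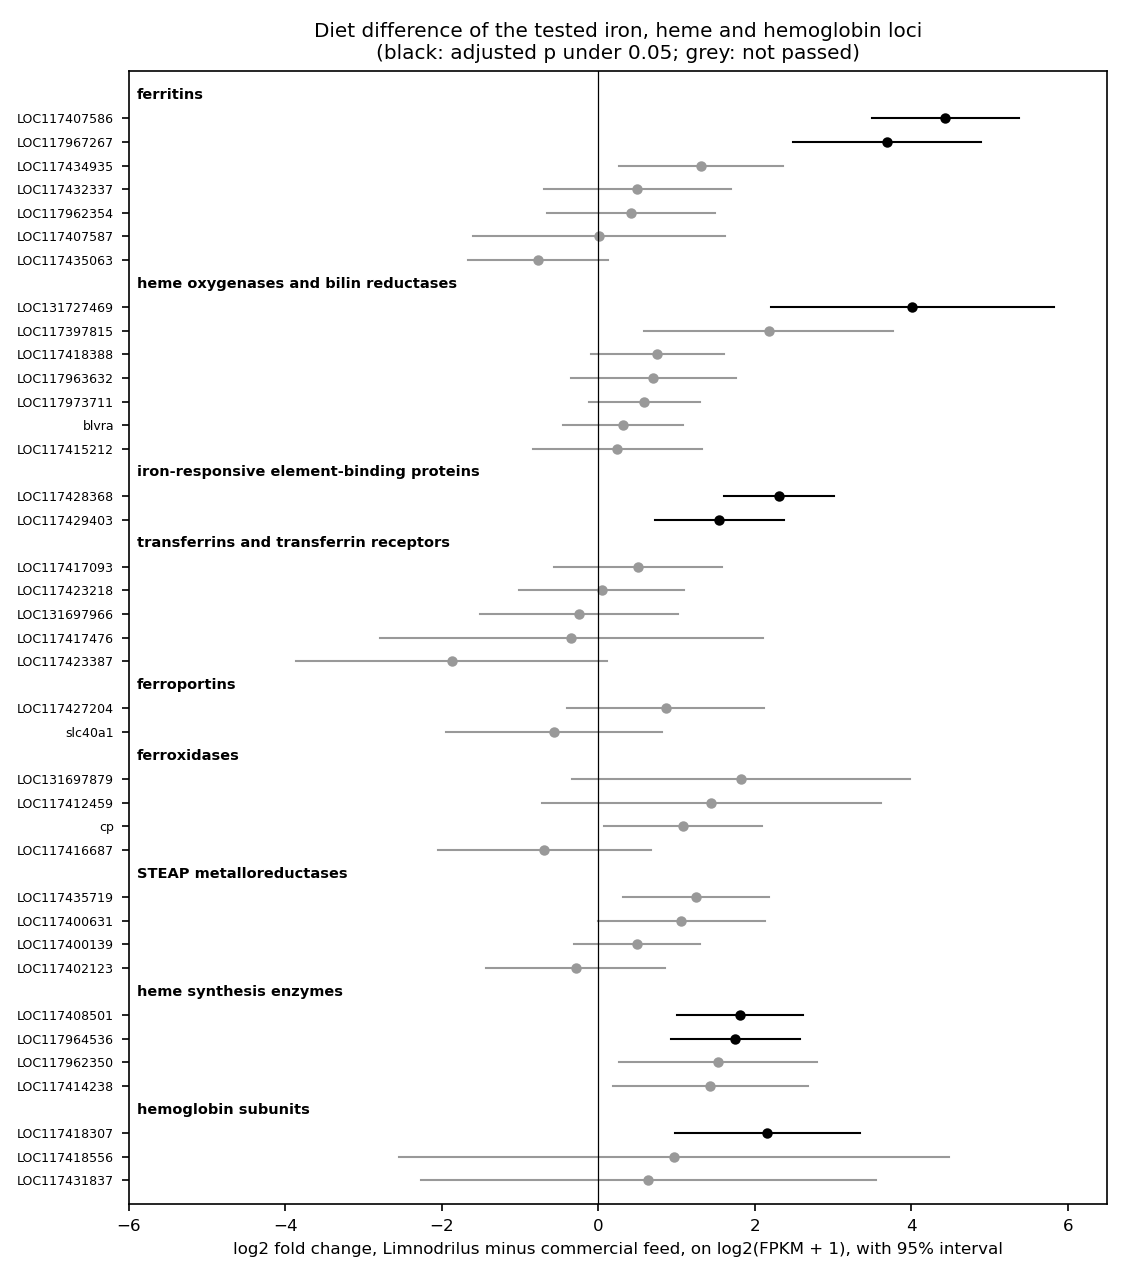
Log2 fold change on log2(FPKM + 1), Limnodrilus minus commercial feed, of the 38 tested iron, heme and hemoglobin loci by role, with 95% intervals from limma; black points passed an adjusted p of 0.05. The 8 black points, all right of 0, include both ferritin middle subunits at 3.69 and 4.43, and the hemoglobin rho-like LOC117418556 has an interval of -2.54 to 4.48.

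Ferritin stores iron as a mineral core inside a shell of subunits. The heavy subunit oxidises iron on entry, and the middle subunit is a form known from fish and amphibians. Both middle subunit loci rose with the worm diet, by 13.4-fold and 22.6-fold in mean FPKM, and neither of the abundant heavy subunit loci passed the test. LOC117967267, at bases 286410 to 289990 of sequence NC_081245.1, was at 5169.6, 3202 and 1765 FPKM with Limnodrilus, against 176, 378 and 202 FPKM with commercial feed. All 3 Limnodrilus libraries lay far above all 3 commercial feed libraries. Means were 3379 ± 1709 FPKM with Limnodrilus and 252 ± 109.7 FPKM with commercial feed (SD, n = 3 each), a ratio of 13.4. The log2 fold change was 3.69 (SE 0.517, 95% interval 2.49 to 4.89, limma adjusted p = 0.00903). By FPKM this locus ranked 5, 5 and 25 among all rows in Limnodrilus libraries 1, 2 and 3, against 286, 209 and 294 in commercial feed libraries 1, 2 and 3.

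The other middle subunit locus, LOC117407586 at bases 110415 to 113762 of NC_081246.1, was at 1612, 1539.6 and 819.6 FPKM with Limnodrilus, against 68.8, 60.5 and 46.0 FPKM with commercial feed. Limnodrilus library 3 was the lowest of its diet at both middle loci and still lay far above every commercial feed library. Means were 1324 ± 438 and 58.5 ± 11.5 FPKM (SD, n = 3 each) in Limnodrilus and commercial feed libraries, a ratio of 22.6. The log2 fold change was 4.43 (SE 0.406, 95% interval 3.49 to 5.38, limma adjusted p = 0.00738), the largest of the tested members. Both middle loci passed the test under each of the 17 other settings tried, with adjusted p-values up to 0.0483 and 0.0424. Without commercial feed libraries 1 and 2, the log2 fold changes were 3.93 and 4.75.

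The heavy subunit locus LOC117432337 was at 1412, 1141 and 953 FPKM with Limnodrilus, against 565, 1708 and 563 FPKM with commercial feed. The diets overlapped because commercial feed library 2 held the highest value of all 6. Means were 1169 ± 230.3 FPKM with Limnodrilus and 945 ± 660.3 FPKM with commercial feed (SD, n = 3 each), and the commercial feed mean was 564 FPKM without library 2. The log2 fold change was 0.50 (SE 0.515, adjusted p = 0.529 by limma). The second heavy locus, LOC117434935, was at 675, 848 and 548 FPKM with Limnodrilus, against 262, 453 and 172 FPKM with commercial feed. Its groups did not overlap, but the log2 fold change of 1.31 (SE 0.45, adjusted p = 0.0824 by limma) missed the threshold. Without commercial feed libraries 1 and 2, which left 1 commercial feed library, the log2 fold change was 1.98. Over all settings the adjusted p of LOC117434935 ran up to 0.235 by limma.

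The composition of ferritin mRNA differed along with its amount. The summed middle loci were 3.25, 2.38 and 1.72 times the summed 2 main heavy loci with Limnodrilus, against 0.296, 0.203 and 0.337 times with commercial feed. Middle subunit loci made up 76.4%, 70.3% and 63.1% of all ferritin FPKM with Limnodrilus, against 22.3%, 16.8% and 25.1% with commercial feed. All ferritin loci together came to 8878, 6746 and 4094 FPKM with Limnodrilus, against 1099, 2611 and 988 FPKM with commercial feed. That sum was 1.57%, 1.22% and 0.704% of the summed FPKM of all rows with Limnodrilus, against 0.167%, 0.400% and 0.182% with commercial feed. In every Limnodrilus library the middle form was the larger share, and in every commercial feed library the heavy form was.

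The 4 remaining ferritin loci were minor. The heavy chain-like LOC117407587 was at 6.40, 9.85 and 4.70 FPKM with Limnodrilus, against 22.8, 4.60 and 2.36 FPKM with commercial feed, with a log2 fold change of 0.01 (limma adjusted p = 0.995). LOC117407587 lies on the same sequence as the middle locus LOC117967267, and the heavy chain-like LOC117962354 lies on the same sequence as the middle locus LOC117407586. LOC117962354 and LOC117435063 had log2 fold changes of 0.42 and -0.77 (limma adjusted p = 0.56 and 0.204), and LOC117432119 was detected in 1 library and not tested.

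**Figure D2:**
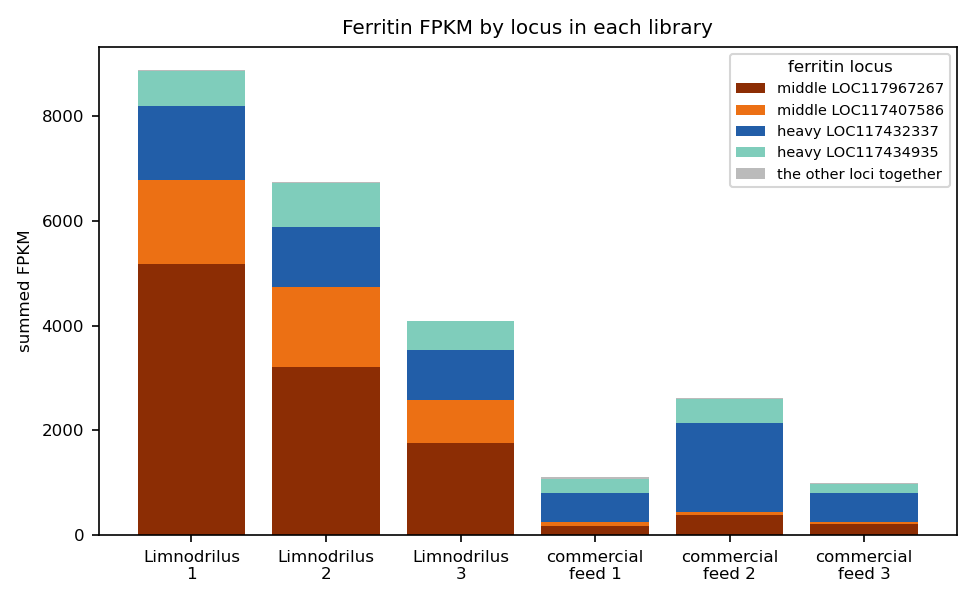
Stacked FPKM of the ferritin loci in each of the 6 gut libraries, Limnodrilus libraries left and commercial feed libraries right, with a colour for each abundant locus and grey for the others together. The stacks reach 8878, 6746 and 4094 FPKM with Limnodrilus and 1099, 2611 and 988 FPKM with commercial feed, and the middle subunit loci fill most of the Limnodrilus stacks.

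Heme oxygenase 1 is the inducible enzyme that cleaves heme to biliverdin, iron and carbon monoxide. The heme oxygenase 1-like locus LOC131727469, at bases 20098 to 24739 of NW_026707497.1 and marked as a low-quality protein model, was at 357, 363 and 49.0 FPKM with Limnodrilus, against 6.78, 15.1 and 11.4 FPKM with commercial feed. All Limnodrilus libraries lay above all commercial feed libraries, although Limnodrilus library 3 was far below the other 2 of its diet. Means were 257 ± 179.7 FPKM with Limnodrilus and 11.1 ± 4.16 FPKM with commercial feed (SD, n = 3 each), a ratio of 23.1. Its log2 fold change was 4.01 (SE 0.78, 95% interval 2.20 to 5.82, limma adjusted p = 0.0168). The call was lost without Limnodrilus library 1 (3.54, adjusted p = 0.066), without Limnodrilus library 2 (3.53, adjusted p = 0.0697) and with commercial feed libraries 1 and 2 removed (3.91, adjusted p = 0.081), within a range of 0.0155 to 0.081 over all settings.

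Heme oxygenase 2, the constitutive form, did not pass. LOC117418388 was at 17.5, 20.8 and 15.4 FPKM with Limnodrilus, against 6.51, 10.99 and 14.3 FPKM with commercial feed, and LOC117973711 was at 7.32, 8.02 and 7.79 FPKM with Limnodrilus, against 4.35, 3.84 and 6.53 FPKM with commercial feed. Neither locus overlapped between diets, with log2 fold changes of 0.76 and 0.59 (SE 0.366 and 0.306, adjusted p = 0.189 and 0.22 by limma). Heme oxygenase 1-like FPKM was 14.4, 12.6 and 2.11 times the summed heme oxygenase 2 FPKM with Limnodrilus, against 0.624, 1.02 and 0.547 times with commercial feed.

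Biliverdin is reduced to bilirubin by biliverdin reductase A and, in mammals, by the flavin reductase called biliverdin reductase B. The flavin reductase-like locus LOC117397815 was at 73.5, 42.5 and 27.4 FPKM with Limnodrilus, against 6.03, 27.3 and 3.997 FPKM with commercial feed. The lowest Limnodrilus and the highest commercial feed value were almost equal. This gave a log2 fold change of 2.18 (SE 0.687, adjusted p = 0.0654 by limma). It passed without commercial feed library 2 (2.93, adjusted p = 0.0372 by limma), and over all settings its adjusted p ran up to 0.201. With commercial feed libraries 1 and 2 removed, which left 1 commercial feed library, the log2 fold change was 3.17. Biliverdin reductase A (blvra) was at 3.41, 2.05 and 4.40 FPKM with Limnodrilus, against 1.84, 2.81 and 2.49 FPKM with commercial feed (log2 fold change 0.31, limma adjusted p = 0.538). The other 2 tested flavin reductase loci had log2 fold changes of 0.24 and 0.70 and did not pass.

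Iron-responsive element-binding protein 2 is the iron regulatory protein whose level, in mammals, falls when iron is plentiful through degradation of the protein. Both loci of it in the table were higher with Limnodrilus. LOC117428368, at bases 19543026 to 19559881 of NC_081209.1, was at 31.3, 38.3 and 36.9 FPKM with Limnodrilus, against 7.12, 5.29 and 6.83 FPKM with commercial feed. The libraries of each diet were close together, and the means of 35.5 ± 3.70 FPKM with Limnodrilus and 6.41 ± 0.982 FPKM with commercial feed (SD, n = 3 each) had a ratio of 5.54. Its log2 fold change was 2.30 (SE 0.302, 95% interval 1.60 to 3.01, limma adjusted p = 0.00821), and it passed under each of the 17 other settings, with adjusted p-values up to 0.0469.

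The second locus, LOC117429403 at bases 17914511 to 17934354 of NC_081212.1, was at 23.8, 20.8 and 27.1 FPKM with Limnodrilus, against 5.75, 6.30 and 11.4 FPKM with commercial feed. Its log2 fold change was 1.55 (SE 0.353, adjusted p = 0.0257 by limma), with no overlap between diets. The call was lost without any 1 Limnodrilus library (adjusted p = 0.0749 to 0.107), without commercial feed library 1 (1.38, adjusted p = 0.0504) or library 2 (1.44, adjusted p = 0.0726), and without both (1.00, adjusted p = 0.0872). The related cytosolic aconitase, named aco1 in the table and known in mammals as the other iron regulatory protein, was at 21.4, 23.9 and 16.4 FPKM with Limnodrilus, against 8.10, 17.5 and 22.7 FPKM with commercial feed. Its groups overlapped (log2 fold change 0.43, limma adjusted p = 0.516).

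**Figure D3:**
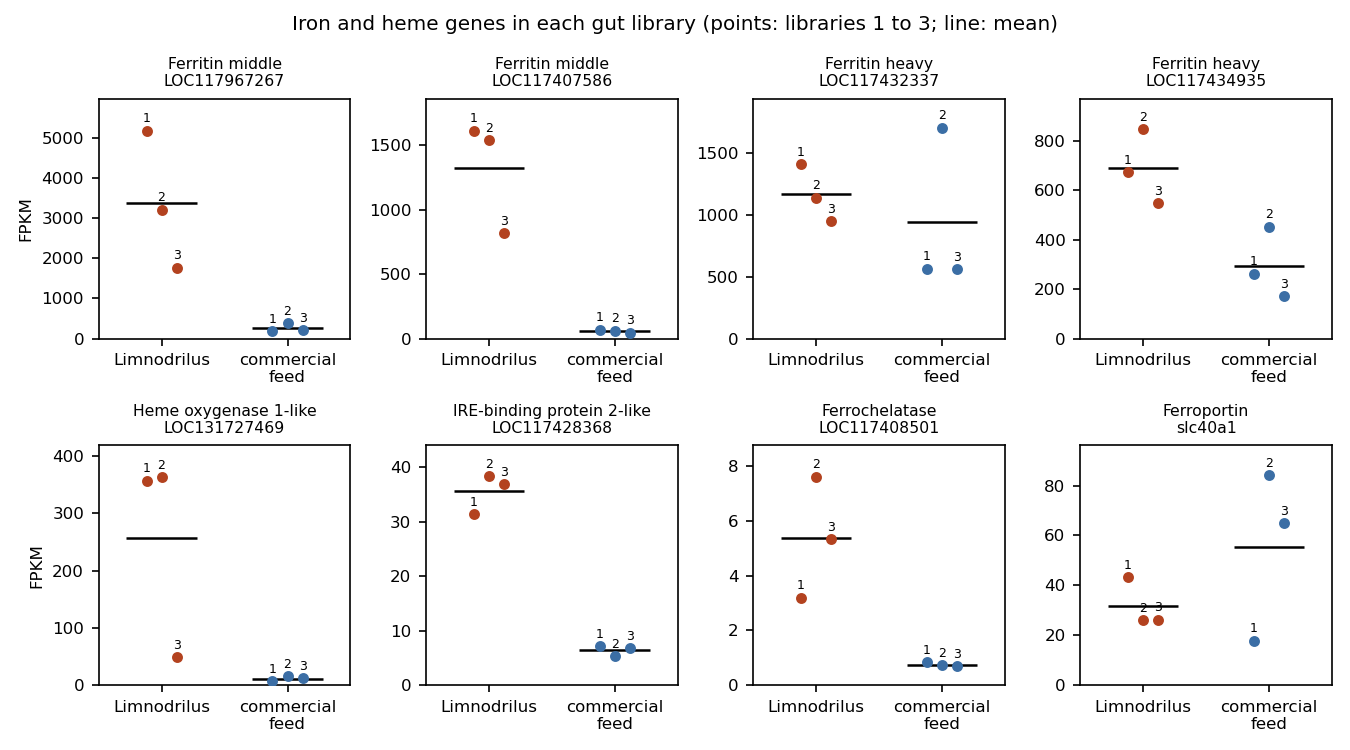
FPKM of 8 iron and heme loci in each library, Limnodrilus left and commercial feed right in each panel; points are libraries 1 to 3 and the line is the mean. The ferritin middle, heme oxygenase 1-like, iron-responsive element-binding protein 2-like and ferrochelatase panels show no overlap between diets, while ferroportin and the heavy subunit LOC117432337 overlap.

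Iron transport in the blood and across the cell membrane gave no called member, beside 14.0% of all rows tested higher and 3.64% lower. Only 5 transferrin and receptor loci and 2 ferroportin loci were tested, too few for that count to set them apart from all rows. Transferrins carry iron in plasma, and transferrin receptor 1 takes it into cells. The most abundant locus of this group, the melanotransferrin-like LOC117417476, was at 51.7, 5.72 and 32.3 FPKM with Limnodrilus, against 7.06, 27.1 and 106 FPKM with commercial feed. Both diets spanned a wide range, and the log2 fold change of -0.35 (SE 1.05, adjusted p = 0.845 by limma) changed sign when Limnodrilus library 2 (0.53) or commercial feed library 3 (0.60) was left out. Serotransferrin-2 (LOC117423387) was at 7.499, 0.619 and 2.53 FPKM with Limnodrilus, against 2.93, 23.5 and 23.9 FPKM with commercial feed (log2 fold change -1.87, SE 0.854, adjusted p = 0.166 by limma). It was lower without commercial feed library 1 (-2.76, adjusted p = 0.043, within a range of 0.043 to 0.42 over all settings). The other serotransferrin-2 locus, LOC117417370, was at 5.24 FPKM in Limnodrilus library 1 and at most 0.169 FPKM in the other 5 libraries.

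Liver markers did not all rank the libraries alike. Limnodrilus library 1 was the highest for the fibrinogen chains, proteins made in the liver. For the whole hepatocyte list its rank depended on the measure. Fibrinogen gamma chain (fgg) was at 9.96, 0.769 and 0.605 FPKM with Limnodrilus, against 0, 0 and 0.197 FPKM with commercial feed. The summed FPKM of all 18 hepatocyte markers was highest in Limnodrilus library 2, at 186, 578 and 218 with Limnodrilus, against 9.26, 36.8 and 177 with commercial feed. Their mean log2(FPKM + 1) was highest in Limnodrilus library 1, at 2.33, 1.64 and 1.62 with Limnodrilus, against 0.444, 0.691 and 1.37 with commercial feed. The part of liver content in the serotransferrin-2 values was not tested. Hepcidin, the liver hormone that lowers iron export, was at very low counts. The hepcidin-like LOC131709138 had 16, 0 and 4 reads with Limnodrilus, against 1, 6 and 0 reads with commercial feed. The second hepcidin-like locus had 9 reads in Limnodrilus library 1 and 0 reads in the other 5 libraries.

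Transferrin receptor 1 overlapped between diets at both loci. LOC117417093 was at 13.9, 4.88 and 16.6 FPKM with Limnodrilus, against 6.48, 6.31 and 8.79 FPKM with commercial feed (log2 fold change 0.51, SE 0.46, adjusted p = 0.471 by limma). LOC117423218 was at 3.92, 3.23 and 4.74 FPKM with Limnodrilus, against 1.80, 3.33 and 8.04 FPKM with commercial feed (log2 fold change 0.04, limma adjusted p = 0.96). Of the 11 transferrin and receptor loci, 5 were tested and 0 passed, beside 14.0% of all rows tested higher and 3.64% lower.

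Ferroportin, the membrane channel that releases iron from enterocytes and macrophages, did not pass either. The main locus slc40a1 was at 43.4, 26.0 and 26.1 FPKM with Limnodrilus, against 17.7, 84.0 and 64.9 FPKM with commercial feed. Commercial feed library 1 lay below all Limnodrilus libraries and commercial feed libraries 2 and 3 above all of them, with a log2 fold change of -0.56 (SE 0.594, 95% interval -1.94 to 0.82, limma adjusted p = 0.538). Summed ferritin middle subunit FPKM was 156, 182 and 98.8 times that of slc40a1 with Limnodrilus, against 13.8, 5.21 and 3.82 times with commercial feed. The second ferroportin locus, LOC117427204, was at 15.9, 5.002 and 4.60 FPKM with Limnodrilus, against 3.34, 6.57 and 1.89 FPKM with commercial feed (log2 fold change 0.86, limma adjusted p = 0.305).

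Hephaestin and ceruloplasmin are copper enzymes that oxidise iron after export, and hephaestin is an enterocyte protein. The hephaestin-like LOC117412459 was at 29.1, 30.9 and 37.4 FPKM with Limnodrilus, against 3.08, 5.93 and 64.3 FPKM with commercial feed. The Limnodrilus libraries were close together, whereas commercial feed library 3 exceeded them and the other 2 were far below, the same order as villin-1 in those 3 libraries. This gave a log2 fold change of 1.44 (SE 0.933, adjusted p = 0.315 by limma). Without commercial feed library 3 it was 2.65 (adjusted p = 0.00762) and with commercial feed libraries 1 and 2 removed it was -0.97 (adjusted p = 0.089), within a range of 0.00762 to 0.636 over all settings. The other hephaestin-like locus, LOC131697879, was at 19.3, 20.1 and 21.7 FPKM with Limnodrilus, against 0.881, 2.69 and 30.7 FPKM with commercial feed (log2 fold change 1.82, SE 0.93, adjusted p = 0.21 by limma). Ceruloplasmin (cp) was at 3.56, 0.865 and 2.33 FPKM with Limnodrilus, against 0, 0.678 and 0.798 FPKM with commercial feed. Its groups did not overlap, and its log2 fold change of 1.08 (SE 0.434, adjusted p = 0.126 by limma) did not pass.

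STEAP metalloreductases reduce iron and copper at membranes. Of 8 loci, 4 were tested and 0 passed, beside 14.0% of all rows tested higher and 3.64% lower. The most abundant, the STEAP4-like LOC117435719, was at 14.2, 6.16 and 13.2 FPKM with Limnodrilus, against 4.30, 4.96 and 2.61 FPKM with commercial feed. Its groups did not overlap, with a log2 fold change of 1.25 (SE 0.402, adjusted p = 0.0685 by limma), which passed on TPM (1.44, adjusted p = 0.0498, within a range up to 0.232 over all settings). The other 3 tested loci overlapped between diets and had log2 fold changes of 1.06, 0.49 and -0.29.

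Heme synthesis begins with 5-aminolevulinate synthase and ends with ferrochelatase, which inserts iron into protoporphyrin. Both ferrochelatase loci rose with Limnodrilus. LOC117408501, at bases 36913833 to 36937207 of NC_081190.1, was at 3.20, 7.63 and 5.33 FPKM with Limnodrilus, against 0.827, 0.721 and 0.684 FPKM with commercial feed. Means were 5.39 ± 2.21 FPKM with Limnodrilus and 0.744 ± 0.0742 FPKM with commercial feed (SD, n = 3 each), and the log2 fold change was 1.81 (SE 0.345, adjusted p = 0.0161 by limma). LOC117964536, at bases 36670425 to 36692665 of NC_081189.1, was at 4.62, 7.36 and 6.93 FPKM with Limnodrilus, against 1.62, 0.472 and 1.53 FPKM with commercial feed. The diets did not overlap at this locus either, and the log2 fold change was 1.75 (SE 0.354, adjusted p = 0.0189 by limma).

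Both ferrochelatase calls were lost when some of the libraries were left out. For LOC117408501 the adjusted p was 0.0617 without Limnodrilus library 2, 0.0701 without Limnodrilus library 3 and 0.0599 without commercial feed libraries 1 and 2, within a range of 0.0148 to 0.0701. For LOC117964536 it was 0.0602, 0.076 and 0.0809 without Limnodrilus library 1, 2 or 3, 0.0508 without commercial feed library 2 and 0.0591 without commercial feed libraries 1 and 2, within a range of 0.0166 to 0.0809.

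The housekeeping form of 5-aminolevulinate synthase, which sets the rate of heme synthesis outside red cells, was higher in every Limnodrilus library but did not pass. LOC117414238 was at 30.8, 110.0 and 38.1 FPKM with Limnodrilus, against 12.1, 23.6 and 20.8 FPKM with commercial feed (log2 fold change 1.43, SE 0.537, adjusted p = 0.104 by limma). LOC117962350 was at 6.70, 27.1 and 7.68 FPKM with Limnodrilus, against 2.17, 3.04 and 5.06 FPKM with commercial feed (log2 fold change 1.53, SE 0.545, adjusted p = 0.0906 by limma). Limnodrilus library 2 stood highest at both loci, and without it the Limnodrilus means were 34.5 and 7.19 FPKM. The 2 loci of the erythroid form were not tested, with means over the 6 libraries up to 0.844 FPKM.

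The enzymes between these ends of the pathway are not members and were taken from a list of protein names. Over the 8 steps, 17 loci were found and 13 tested. With Limnodrilus 4 of these were higher and 0 lower, beside 14.0% and 3.64% of all rows tested. The median log2 fold change of the 13 was 0.66 (0.24 over all rows). Those 4 include the ferrochelatase LOC117408501, which entered the test only through its Limnodrilus values. The calls were the 2 ferrochelatases and both loci of coproporphyrinogen-III oxidase, the enzyme of the sixth step. LOC117405184 was at 12.8, 11.2 and 17.96 FPKM with Limnodrilus, against 0.683, 1.92 and 3.84 FPKM with commercial feed (log2 fold change 2.36, SE 0.438, adjusted p = 0.0154 by limma). LOC117406787 was at 6.88, 8.93 and 10.8 FPKM with Limnodrilus, against 1.69, 0.623 and 2.22 FPKM with commercial feed (log2 fold change 2.01, SE 0.363, adjusted p = 0.0144 by limma). Both lost the call without any 1 Limnodrilus library, with adjusted p-values of 0.0557 to 0.0696, and LOC117405184 also without commercial feed library 2 (0.0502).

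The dehydratase and synthase steps after 5-aminolevulinate had negative log2 fold changes and did not pass the test. Delta-aminolevulinic acid dehydratase (LOC117396695), the most abundant of the listed enzymes, was at 13.5, 8.25 and 16.4 FPKM with Limnodrilus, against 10.4, 26.6 and 33.4 FPKM with commercial feed (log2 fold change -0.74, limma adjusted p = 0.327). Uroporphyrinogen-III synthase (LOC131737568) was at 0.759, 2.46 and 1.61 FPKM with Limnodrilus, against 2.65, 10.8 and 5.02 FPKM with commercial feed (log2 fold change -1.34, limma adjusted p = 0.0955). Its groups did not overlap, and it is named here after its values were seen.

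**Figure D4:**
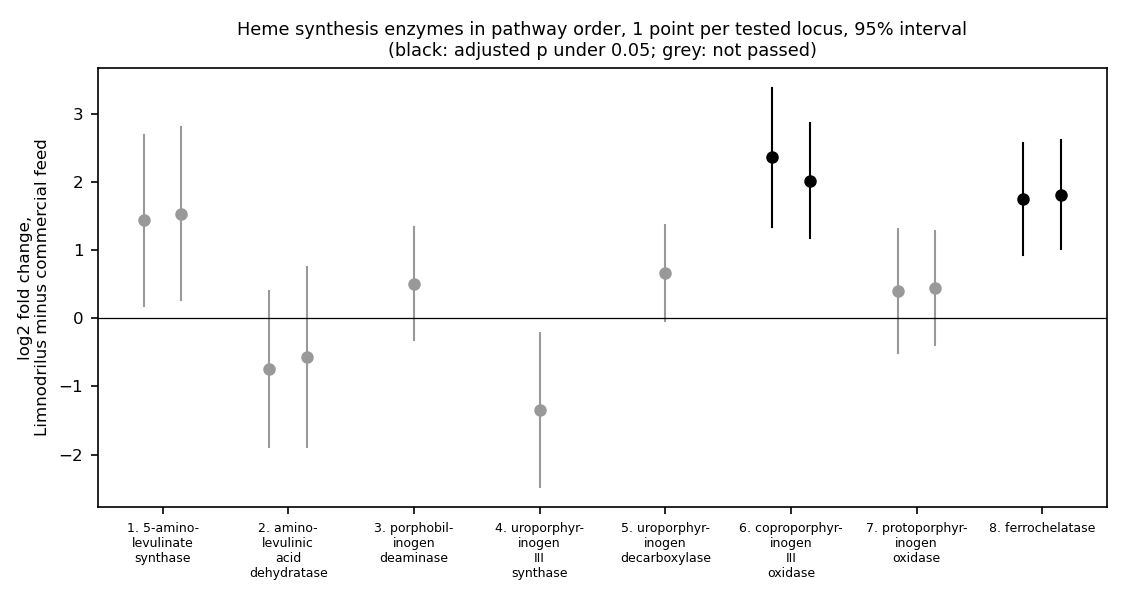
Log2 fold change on log2(FPKM + 1), Limnodrilus minus commercial feed, of the 13 tested heme synthesis loci in the order of the 8 enzyme steps, with 95% intervals from limma. The 4 black points that passed are the coproporphyrinogen-III oxidase and ferrochelatase loci, between 1.75 and 2.36, and the points below 0 are delta-aminolevulinic acid dehydratase and uroporphyrinogen-III synthase. The ferrochelatase LOC117408501 entered the test only through its Limnodrilus values.

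The abundant hemoglobin subunits varied more between libraries of a diet than between diets. Of 9 loci, 3 were tested. The rho-like LOC117418556, named after an embryonic beta-type globin of chicken, was at 81.9, 207 and 42.7 FPKM with Limnodrilus, against 2.51, 333 and 84.6 FPKM with commercial feed. The alpha subunit LOC117431837 was at 98.5, 129.6 and 46.2 FPKM with Limnodrilus, against 4.998, 239 and 112 FPKM with commercial feed. Commercial feed library 2 was the highest and commercial feed library 1 the lowest of the 6 at both loci. Log2 fold changes were 0.97 (SE 1.51, 95% interval -2.54 to 4.48, limma adjusted p = 0.685) for the rho-like locus and 0.64 (SE 1.25, 95% interval -2.26 to 3.54, limma adjusted p = 0.751) for the alpha locus. Without commercial feed library 1, the rho-like value was -0.89.

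These 2 loci are on different sequences, NC_081201.1 and NC_081210.1, and their ratio stayed between 0.502 and 1.60 in the 6 libraries while the rho-like level ranged over 2.51 to 333 FPKM. All hemoglobin members summed to 183, 350 and 91.5 FPKM with Limnodrilus, against 7.51, 572 and 198 FPKM with commercial feed. The abundant hemoglobin embryonic subunit alpha-like LOC117418576, which the member terms do not match, was likewise highest in commercial feed library 2 and lowest in commercial feed library 1, at 43.5, 111 and 23.0 FPKM with Limnodrilus, against 1.45, 153 and 23.3 FPKM with commercial feed.

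The beta-2-like LOC117418307, at bases 6199403 to 6200755 of NC_081201.1, was the hemoglobin member that passed. It was at 1.64, 9.00 and 2.40 FPKM with Limnodrilus, from 15, 117 and 27 reads, against 0 FPKM in all 3 commercial feed libraries. Against the level of 3 reads, averaging 0.443 FPKM in the commercial feed libraries, it was at least 9.81-fold higher, a bound that covers counting error only. The limma adjusted p was 0.0281, and it was above 0.05 without any 1 Limnodrilus library (0.0531, 0.051 and 0.0718 without library 1, 2 or 3), without commercial feed library 1 (0.0566) or library 2 (0.0749) and without both (0.113), when no row was filtered out (0.052) and under quantile normalization (0.055). The Limnodrilus mean was 4.34 FPKM, and 2.02 FPKM without library 2. The epsilon-like LOC117431475 had 1, 53 and 0 reads with Limnodrilus, against 0 reads in each commercial feed library.

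Other genes of red blood cells shared the order of the hemoglobins only in part. The summed FPKM of 11 red cell markers was 10.7, 6.06 and 16.0 with Limnodrilus, against 29.1, 33.2 and 15.8 with commercial feed. Commercial feed library 2 was highest here, as for the hemoglobins. Commercial feed library 1, lowest for the hemoglobins, lay above every Limnodrilus library here. Of these, 5 were tested, 0 were higher and 1 was lower, beside 14.0% and 3.64% of all rows tested. The lower one was dematin (LOC117397930), a protein of the red cell skeleton that other cells also make. It was at 1.53, 1.16 and 2.16 FPKM with Limnodrilus, against 5.88, 6.16 and 7.92 FPKM with commercial feed (log2 fold change -1.55, limma adjusted p = 0.0168). Band 3 (LOC117434883), the red cell anion exchanger, was at most 0.507 FPKM in every library and the ankyrin-1-like loci at most 0.127 FPKM. The part of blood content in the hemoglobin values was not tested.

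**Figure D5:**
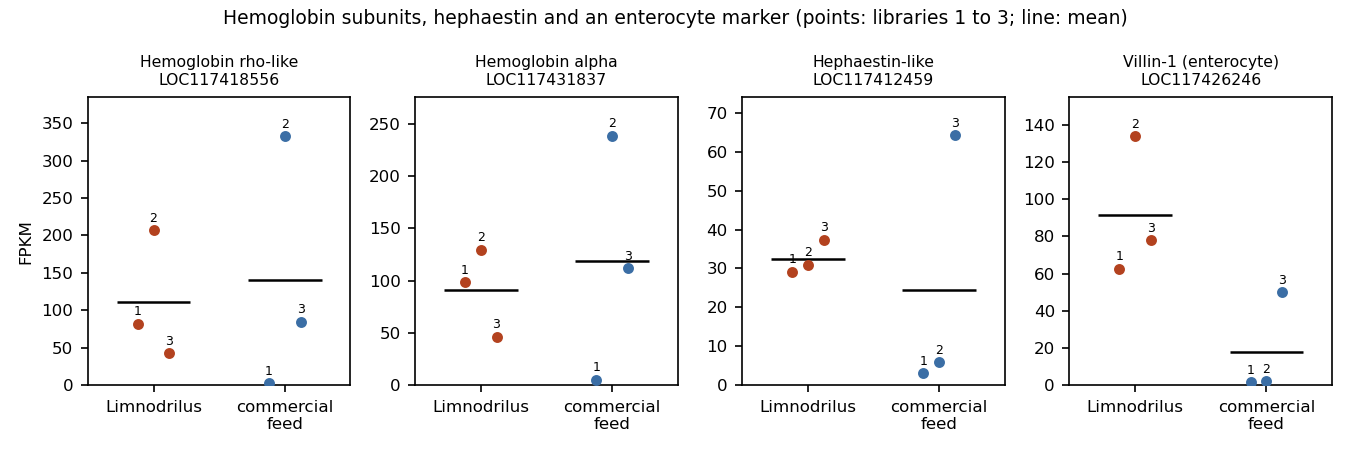
FPKM of 2 hemoglobin subunits, a hephaestin-like locus and the enterocyte marker villin-1 in each library, Limnodrilus left and commercial feed right; points are libraries 1 to 3 and the line is the mean. Commercial feed library 2 is highest for both hemoglobins at 333 and 239 FPKM, and commercial feed library 3 is highest of its diet for hephaestin and villin-1 at 64.3 and 50.1 FPKM.

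Many members came as pairs with the same protein name on different sequences of this genome. Of 11 such pairs picked among the iron and heme loci, 3 had both loci called (ferritin middle subunit, iron-responsive element-binding protein 2 and ferrochelatase). Neither locus was called in 8, and 0 had a single locus called. The ferrochelatase pair counts as called through LOC117408501, which entered the test only through its Limnodrilus values. The share of such pairs over all rows was not computed, so these counts have no comparison. The 11 are not all the pairs of members. The hephaestin-like loci, neither called, are not among them. For pyruvate dehydrogenase kinase isozyme 3, LOC117405913 was called and LOC117407271 was not (log2 fold change 0.95, limma adjusted p = 0.15). For the isozyme 2-like kinases, LOC117433481 was called and LOC117971176 was not (0.73, limma adjusted p = 0.379). Pair partners had log2 fold changes of the same sign in 9 of the 11 pairs. The exceptions were ferroportin (-0.56 for slc40a1 and 0.86 for LOC117427204) and ceruloplasmin (1.08 for cp and -0.69 for LOC117416687). Pair partners are not independent, since reads that match both copies may have been split between them.

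Other genes of iron and heme handling were taken from 5 lists of protein names with 129 loci, of which 76 were tested. Higher were 21 and lower 0, beside 14.0% and 3.64% of all rows tested, with a median log2 fold change of 0.49 (0.24 over all rows). Those 21 include LOC117966962, LOC117397853, LOC117397786 and the BACH1-like LOC117407209, which entered the test only through their Limnodrilus values. The Limnodrilus libraries lay above without overlap for 29 of the 76 and below for 11, beside 28.4% and 11.5% of all rows tested. Log2 fold changes ran from -2.44 to 2.76. Without Limnodrilus library 1, 2 or 3 the number higher was 4, 5 and 5, beside 2.79%, 2.71% and 2.38% of all rows tested. It was 11 without commercial feed library 2, beside 6.26%. The number lower was 5 without commercial feed library 1, beside 4.27% of all rows tested. In the list of iron uptake, traffic and control, 6 of 17 tested loci were higher and 0 lower, beside 14.0% and 3.64% of all rows tested, with a median of 0.46. Those 6 include LOC117966962, LOC117397853 and LOC117397786. In 7 of the 17 the Limnodrilus libraries lay above without overlap and in 3 below, beside 28.4% and 11.5% of all rows tested. The lowest log2 fold change was -2.44. The locus of smallest p was the natural resistance-associated macrophage protein 2-like LOC117966962, a divalent metal transporter of the kind that takes up iron in the gut. It was at 3.52, 8.05 and 2.08 FPKM with Limnodrilus, against 0.0434, 0 and 0 FPKM with commercial feed (log2 fold change 2.31, SE 0.429, adjusted p = 0.0154 by limma). It entered the test only through its Limnodrilus values, as did LOC117397853 and LOC117397786 below. The call was lost without Limnodrilus library 1 (adjusted p = 0.0584) and with commercial feed libraries 1 and 2 removed (adjusted p = 0.0646).

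Nuclear receptor coactivator 4, which in mammals carries ferritin to the lysosome for iron release, was also higher. LOC117418128 was at 15.5, 22.8 and 24.1 FPKM with Limnodrilus, against 2.14, 4.50 and 7.57 FPKM with commercial feed (log2 fold change 2.02, SE 0.432, adjusted p = 0.0216 by limma). The metal transporter ZIP14 (LOC117397853, 1.25, limma adjusted p = 0.0341) and the mitochondrial iron importer mitoferrin-1 (LOC117397786, 1.23, limma adjusted p = 0.0386) were also higher. The most abundant locus of the list, mitoferrin-2 (slc25a28), was at 49.2, 19.2 and 45.9 FPKM with Limnodrilus, against 65.2, 61.1 and 50.05 FPKM with commercial feed (-0.71, limma adjusted p = 0.287). LOC117418128, LOC117397853 and LOC117397786 each lost the call without any 1 Limnodrilus library (adjusted p = 0.0649 to 0.0877, 0.0799 to 0.0994 and 0.0599 to 0.124). Each also lost it without commercial feed library 2, at adjusted p-values of 0.0607, 0.0731 and 0.081, and without commercial feed libraries 1 and 2 together, at log2 fold changes of 1.32, 1.08 and 1.15 (adjusted p = 0.0701, 0.087 and 0.0784). LOC117397853 and LOC117397786 also lost it without commercial feed library 1 (0.055 and 0.0515) and under median-of-ratios scaling (0.0543 and 0.0524) or quantile normalization (0.108 and 0.0901), and LOC117397786 with a pseudocount of 0.1 (0.0541).

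In the list of heme transport and scavenging, 3 of 16 tested loci were higher and 0 lower, beside 14.0% and 3.64% of all rows tested, with a median of 0.15. In 4 of the 16 the Limnodrilus libraries lay above without overlap and in 4 below, beside 28.4% and 11.5% of all rows tested. The lowest log2 fold change was -1.88. Membrane-associated progesterone receptor component 1, a heme-binding protein that in mammals is a partner of ferrochelatase, was higher at both called loci. LOC117963258 was at 46.1, 72.8 and 45.4 FPKM with Limnodrilus, against 6.98, 11.5 and 4.25 FPKM with commercial feed (log2 fold change 2.76, SE 0.419, adjusted p = 0.0101 by limma), and it passed under each of the 17 other settings. LOC131701634, the most abundant of the list, was at 104, 134 and 96.6 FPKM with Limnodrilus, against 13.7, 46.0 and 23.8 FPKM with commercial feed (2.11, limma adjusted p = 0.0243). The third call was the heme-binding protein 2-like LOC117402622 (1.84, limma adjusted p = 0.0198). The last 2 lost the call without any 1 Limnodrilus library, at adjusted p-values of 0.0803 to 0.0913 and 0.0661 to 0.0861.

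In the list of iron-sulfur cluster assembly, 5 of 23 tested loci were higher and 0 lower, beside 14.0% and 3.64% of all rows tested, with a median of 0.57. In 9 of the 23 the Limnodrilus libraries lay above without overlap and in 2 below, beside 28.4% and 11.5% of all rows tested. The lowest log2 fold change was -1.13. The cytosolic iron-sulfur assembly component 2A-like LOC117429733 was at 16.6, 23.9 and 17.2 FPKM with Limnodrilus, against 2.39, 3.13 and 1.80 FPKM with commercial feed (log2 fold change 2.56, SE 0.318, adjusted p = 0.00758 by limma), and it passed under each of the 17 other settings. The component 2B-like LOC117425886 had a log2 fold change of 1.54 (limma adjusted p = 0.0165). Both loci of glutaredoxin-related protein 5, a mitochondrial cluster carrier, were higher, at 1.51 for LOC117416616 and 1.42 for LOC117422117 (limma adjusted p = 0.0201 and 0.0307). The scaffold IscU-like LOC117428067, the most abundant, was at 139, 141 and 124 FPKM with Limnodrilus, against 77.5, 44.6 and 33.7 FPKM with commercial feed (1.44, limma adjusted p = 0.0442). These 4 loci lost the call without any 1 Limnodrilus library, at adjusted p-values between 0.0639 and 0.142. LOC117425886 also lost it without commercial feed library 2 (0.0501), LOC117428067 without commercial feed library 2 (0.1) or 3 (0.0535), and LOC117422117 and LOC117428067 under median-of-ratios scaling (0.0872 and 0.137).

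Transcription factors known in mammals to control ferritin and heme oxygenase 1 formed the last list, with 5 of 11 tested loci higher and 0 lower, beside 14.0% and 3.64% of all rows tested, and a median of 1.23. In 6 of the 11 the Limnodrilus libraries lay above without overlap and in 1 below, at a log2 fold change of -1.99. Over all rows tested, 28.4% lay above and 11.5% below. Nuclear factor erythroid 2-related factor 2 (LOC117401850), which activates both genes, was at 23.5, 25.2 and 29.2 FPKM with Limnodrilus, against 5.75, 6.92 and 5.15 FPKM with commercial feed (log2 fold change 1.96, SE 0.298, adjusted p = 0.0101 by limma). The heme-sensing repressor BACH1 was higher as well. BACH1-like LOC117407209 was at 15.5, 6.56 and 8.58 FPKM with Limnodrilus, against 1.14, 0.751 and 1.01 FPKM with commercial feed (2.43, SE 0.364, adjusted p = 0.00968 by limma), and LOC117406237 had a log2 fold change of 1.70 (limma adjusted p = 0.0214).

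Kelch-like ECH-associated protein 1 is the inhibitor of nuclear factor erythroid 2-related factor 2. Its locus LOC117402049 was at 9.20, 8.99 and 5.29 FPKM with Limnodrilus, against 1.31, 1.502 and 1.63 FPKM with commercial feed (log2 fold change 1.80, SE 0.316, adjusted p = 0.0136 by limma). The most abundant locus, hypoxia-inducible factor 1-alpha-like LOC117422192, was at 44.0, 50.4 and 47.6 FPKM with Limnodrilus, against 42.0, 43.3 and 43.8 FPKM with commercial feed (0.13, limma adjusted p = 0.789), a difference that was -0.17 under median-of-ratios or quantile scaling. BACH1-like LOC117407209, with a commercial feed mean of 0.968 FPKM, entered the test only through its Limnodrilus values. Its call, counted above among those of the list, is given as a description. It passed under each of the 17 other settings. LOC117401850 lost the call without Limnodrilus library 3 (adjusted p = 0.056), LOC117402049 without Limnodrilus library 1 (0.068) or 2 (0.0608), and LOC117406237 without any 1 Limnodrilus library (0.0521 to 0.0899) or commercial feed library 2 (0.0607). Without commercial feed libraries 1 and 2 together, LOC117402049 and LOC117406237 had adjusted p-values of 0.0537 and 0.0948.

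Transporters of the feline leukemia virus receptor family, of which FLVCR1 is described in mammals as a heme exporter, are named FLVCR in the table, outside the member terms. They were looked up after values had been seen. The FLVCR2-like LOC117962631 was at 12.4, 16.3 and 10.1 FPKM with Limnodrilus, against 0.923, 2.23 and 5.89 FPKM with commercial feed (log2 fold change 1.97, SE 0.49, adjusted p = 0.033 by limma). The FLVCR2-like LOC131697617 was at 3.33, 4.35 and 2.23 FPKM with Limnodrilus, against 0.241, 0.214 and 0.305 FPKM with commercial feed (1.75, SE 0.315, adjusted p = 0.0144 by limma), and entered the test only through its Limnodrilus values. Neither overlapped between diets. Their adjusted p-values reached 0.12 and 0.0618 when a Limnodrilus library was left out, and LOC117962631 also lost the call without commercial feed library 1 (0.0594) or 2 (0.0924), without both (log2 fold change 1.00, adjusted p = 0.126) and with no filter (0.0601). The FLVCR1-like loci LOC117402275 and LOC117411017 did not pass (1.74 and 1.07, limma adjusted p = 0.13 and 0.067).

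The 10 pyruvate dehydrogenase rows act at the entry of pyruvate into mitochondrial oxidation and have no role in iron transport. Of 6 tested, 3 were higher and 0 lower, beside 14.0% and 3.64% of all rows tested. Those 3 include LOC117405913 and LOC117424663, which entered the test only through their Limnodrilus values. The kinase isozyme 2-like LOC117433481 was at 45.0, 97.4 and 42.6 FPKM with Limnodrilus, against 8.60, 20.01 and 11.7 FPKM with commercial feed (log2 fold change 2.09, SE 0.465, adjusted p = 0.0241 by limma). The kinase isozyme 3 LOC117405913 was at 4.44, 20.03 and 5.39 FPKM with Limnodrilus, against 1.29, 0.849 and 0.636 FPKM with commercial feed (2.24, SE 0.528, adjusted p = 0.0282 by limma), and its Limnodrilus mean of 9.95 FPKM was 4.91 FPKM without library 2. The phosphatase 2-like LOC117424663 was at 2.02, 2.21 and 2.34 FPKM with Limnodrilus, against 0.287, 0.651 and 0.463 FPKM with commercial feed (1.13, SE 0.289, adjusted p = 0.0359 by limma). All 3 lost the call without any 1 Limnodrilus library, at adjusted p-values of 0.0581 to 0.118. LOC117433481 also lost it without commercial feed library 1 (0.0509), LOC117405913 without library 2 (0.0799) and LOC117424663 without library 1 (0.062) or 2 (0.0544), and LOC117405913 and LOC117424663 under median-of-ratios scaling (0.0577 and 0.0548). Without commercial feed libraries 1 and 2 together, the adjusted p-values of the 3 loci were 0.0527, 0.0963 and 0.0562.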

How the data were processed

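Poly(A) RNA of gut tissue was sequenced in 3 libraries per diet, and groups and library numbers follow the labels. The authors deposited 1 table of FPKM values for 82023 rows, with protein names, coordinates and a length for each row, a whole number of bases. The tool cutadapt 1.9 and the mouse build mm10 are listed per the submitters' processing notes. The row coordinates use sequence names of another kind and are printed as deposited. Not given in the sources used here are the aligner, the counter, the assembly, whether strand was used and how reads with several matches were treated.

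In each library, 100% of low values (up to about 20 reads) were whole multiples of 1 read within 0.1, which gave the depths reported. The diet comparison used limma-trend (limma 3.58.1, R 4.3.3, 2-sided) on log2(FPKM + 1), for rows averaging 1 FPKM or more, with Benjamini-Hochberg adjustment over all of them. Fold changes on this scale understate the change of low rows. With 3 libraries per diet, the smallest p of an exact permutation test is 0.1. The method was also run on simulated data with planted changes. Each row was drawn independently there, so the simulation cannot speak to calls that arise from tissue content shared between rows.

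The members and lists were chosen with earlier results of these data known. Loci given with values in every library were those that passed, the most abundant tested one of each role, those without overlap and a log2 fold change over 1 in size, and from each list up to 4 of smallest p and the most abundant. Others are named beside them. The alternatives were a pseudocount of 0.1, no filter, a minimum mean of 5 FPKM, quantile normalization, conversion to TPM, scaling by median of ratios, robust limma-trend, limma with no trend, a replicate block, each library left out, commercial feed libraries 1 and 2 left out together, and limma-voom on recovered reads.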

Additional observations from a re-analysis of the deposited data

How the results depend on the processing

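Of the 71 rows, 11 were higher with Limnodrilus. The count was 7 at a minimum mean of 5 FPKM and 3 to 13 when 1 library was left out. It was 4, 3 and 4 without Limnodrilus library 1, 2 or 3, and 7, 7 and 13 without commercial feed library 1, 2 or 3. Under the other settings with no library left out it was 8 to 12. Leaving out commercial feed libraries 1 and 2 together left 1 commercial feed library, so calls are not counted for that setting. Calls kept or lost by single loci under that setting, as given above, rest on that 1 commercial feed library. The share of all rows called higher was 14.0% in the main test, 16.8% at a minimum mean of 5 FPKM and 2.38% to 20.7% with 1 library left out. The count of members lower was 0, and 0 to 1 with 1 library left out, the 1 being serotransferrin-2 without commercial feed library 1. Of the listed genes outside the members, 21 were higher, with 4 to 25 when 1 library was left out and 14 to 22 otherwise. None was lower in the main test. Lower were 2 at a minimum mean of 5 FPKM, 4 under median-of-ratios scaling and 5 under quantile normalization. The shares of all rows lower under these settings were 5.34%, 6.31% and 6.95%. With the replicate block 1 was lower, beside 2.11% of all rows, and with 1 library left out 0 to 5 were. The cause of these changes was not tested. Fewer rows were tested at 5 FPKM, and fewer samples entered the test when libraries were left out.

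Over all rows tested, 3321 were higher and 861 lower, against 2237 and 1492 under median-of-ratios scaling and 2298 and 1643 under quantile normalization. These scalings moved the median log2 fold change of all rows from 0.24 to 0.01 and -0.03, and the iron, heme and hemoglobin members called higher numbered 8 and 7 under them. Signs changed for the hephaestin-like LOC117412459 (-0.97 without commercial feed libraries 1 and 2), melanotransferrin-like LOC117417476 (0.53 without Limnodrilus library 2, 0.60 without commercial feed library 3, and as low as -1.27 with 1 library left out), the rho-like hemoglobin LOC117418556 (-0.89 without commercial feed library 1, and up to 2.39 with 1 library left out) and hypoxia-inducible factor 1-alpha-like LOC117422192 (-0.17 under both scalings). None of these passed the test. Of the 45 loci for which the alternatives were computed, 6 lost their call under median-of-ratios scaling, 7 under quantile normalization, 6 with the replicate block, 4 with no filter, and 1 each with a pseudocount of 0.1 and with limma-voom.

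Replicate numbers did not pair the libraries: deviations of same-numbered libraries correlated at 0.187, -0.0692 and 0.0747 over the rows tested. With the replicate block, 10 members were higher and 0 lower, beside 8.91% and 2.11% of all rows tested. Of the listed genes, 14 were higher and 1 lower under it.

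With 3 libraries per diet at 9.95 to 19.7 M reads, loci averaging under 1 FPKM, among them hepcidin, transferrin receptor 2 and most hemoglobin loci, were left out by the filter. With no filter, 0 of these iron, heme and hemoglobin loci were called, beside 7.19% of all rows tested higher and 1.36% lower. The pyruvate dehydrogenase phosphatase LOC117425137 was called under that setting (log2 fold change 0.82, limma adjusted p = 0.0256).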
